A study of Danio rerio with 10 samples.

Results

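The embryonic and larval globin genes of the zebrafish were described here in pools of whole animals from a ciliopathy line. The 9 gene names were hbae1.1, hbae1.3, hbae3 and hbae5 of the alpha type and hbbe1.1, hbbe1.2, hbbe1.3, hbbe2 and hbbe3 of the beta type. They were chosen by name and matched by gene symbol, in any case, to the Ensembl identifiers of the count tables. Of these names, 5 matched 1 identifier each, out of 32057 genes in all, namely hbae1.1 (ENSDARG00000089475), hbae1.3 (ENSDARG00000089124), hbae3 (ENSDARG00000079305), hbae5 (ENSDARG00000045142) and hbbe3 (ENSDARG00000038147). The other 4 names, all of the beta type, matched no identifier. A further 7 identifiers carry the symbol HBE1, the human embryonic beta-type globin, and no source used here says which zebrafish gene each of them is. The 4 abundant HBE1 identifiers are therefore given beside the members, by identifier, and are not assigned to any of the 4 missing names.

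RNA was taken from 10 pools, 2 per group in 5 groups. The groups were wild type (WT) at 2 days post fertilization (dpf), rpgrip1l-/- mutants with a curled-down tail (CDT) at 2 dpf, rpgrip1l-/- mutants of normal appearance at 2 dpf, WT at 5 dpf and rpgrip1l-/- mutants at 5 dpf, with no tail label on the last. Rpgrip1l is a protein of the ciliary transition zone, the gate at the base of the cilium, and the mutant line carries a frameshift made by CRISPR-Cas9 on the AB strain. Mutant embryos came from crosses of homozygous mutant parents and WT embryos from AB crosses, so the genotype of the embryo and that of its parents cannot be told apart. Nothing in the labels says that the 2 pools of a group came from separate clutches, and p-values then measure only the spread between these pools.

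Haemoglobin is a tetramer of alpha-type and beta-type chains, and vertebrates make successive sets of both as development proceeds, a process called globin switching. In zebrafish the alpha-type and beta-type genes lie side by side in shared clusters, and the embryonic and larval genes (named with an e) are used by primitive red cells before the adult genes (named with an a) take over. Red cells build the haem that each chain carries through a dedicated pathway that starts with Alas2.

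In the gene order of the RefSeq assembly GRCz12tu, used here for neighbours only, the members fell into 2 clusters. The smaller holds 4 globin genes in the order hbae4, hbbe3, hbbe2 and hbae5, with 2 other genes among them. The larger holds 13 genes with no other gene between them, and its embryonic end runs hbbe1.1, hbae1.1, hbbe1.2, hbae1.2, hbbe1.3, hbae1.3, hbae3. The members thus include neighbours, and hbbe3 and hbae5 share a cluster but, as given below, not a time course.

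The shallowest library held 9101264 counts on genes and the deepest 17536165 (median 13962408.5). Levels are given as CPM, counts brought to a common library size, with edgeR's trimmed mean of M values (TMM), which equalises the bulk of genes between libraries. The scaling factors were 0.815 and 0.84 in the WT pools at 2 dpf and 1.17 to 1.22 in the mutant pools of that age, so the choice of scaling matters at 2 dpf. The 100 most abundant genes took 41.3% and 42.4% of counts in those WT pools against 33.5% to 34.6% in the mutants. With library size alone the median log2 difference of all genes moved from 0.03 to 0.48 for CDT mutants and from 0.01 to 0.46 for normal-tailed mutants against WT, and each change at 2 dpf below is read relative to that shift. Of all genes called, 49.5% were then higher in CDT mutants with TMM and 91.7% with library size alone. Transcripts of rpgrip1l itself were at 11 to 36 counts in every library and do not check the labels, since a frameshift need not remove the transcript. Reads that map to more than 1 place were discarded in counting, so identifiers with near-identical copies (the hbae1 group and the HBE1 identifiers) may be undercounted, and how reads were split among them is uncertain.

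Summed over all 16 globin identifiers of red cells, globin transcripts took 0.672% and 0.666% of the counts on genes in the WT pools at 2 dpf. The share was 0.521% and 0.559% in CDT mutants and 0.459% and 0.435% in normal-tailed mutants. By 5 dpf it had dropped to 0.119% and 0.146% in WT and to 0.176% and 0.192% in mutants. The order of the groups thus turned between the ages, with WT highest at 2 dpf and lowest at 5 dpf, and no pools of different groups overlapped. In whole animals, fewer red cells and less globin RNA per red cell cannot be told apart.

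**Figure D1:**
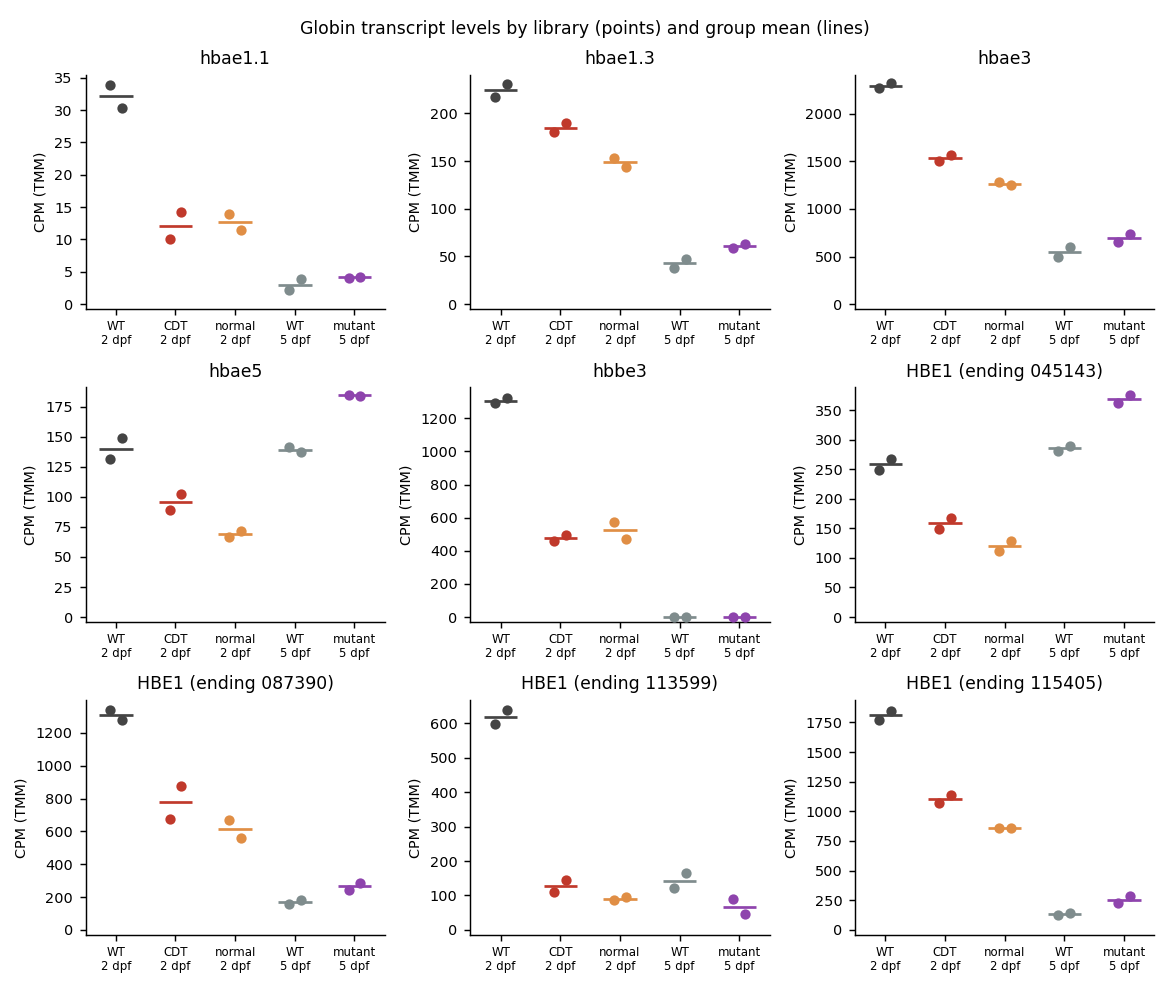
Level of each member and of the 4 abundant HBE1 identifiers in CPM (TMM, linear axes that start at 0) for each of the 10 libraries (points) with the mean of the 2 libraries of a group (lines). hbbe3 is at 461 to 1320 CPM at 2 dpf and at or near 0 at 5 dpf, whereas hbae5 does not fall with age, at 131 to 149 CPM in WT of both ages.

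From 2 to 5 dpf in WT, 4 of the 5 members fell and hbae5 did not change beyond its error. Of all 21016 genes tested in that comparison 60.8% were called, 29.5% as lower and 31.3% as higher, so a fall by itself was common. The size of the change set the members apart from each other. The beta-type gene hbbe3 was at 1290 and 1320 CPM in WT at 2 dpf and at 0 and 0.0631 CPM at 5 dpf, which are 0 and 1 counts. A count of 0 allows up to 3 counts in such a library. Over the WT pools 30483 counts at 2 dpf stood against 1 count at 5 dpf, a ratio of 40300 after scaling with a 95% exact interval of 7240 to 1590000 that covers counting error only. No other member came near to losing all of its transcripts.

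The alpha-type gene hbae1.1 was at 33.9 and 30.3 CPM in WT at 2 dpf and at 2.12 and 3.85 CPM at 5 dpf. Its log2 change was -3.42 (SE 0.204, edgeR adjusted p = 3.22e-14). hbae1.3, from the same cluster, went from 217 and 231 CPM to 38.4 and 47.6 CPM, a log2 change of -2.38 (SE 0.104, adjusted p = 3.72e-17). The level of hbae3 was 2270 and 2320 CPM at 2 dpf and 496 and 603 CPM at 5 dpf, a log2 change of -2.06 (SE 0.0959, adjusted p = 1.4e-16). For each of these 3 genes the 2 ages did not overlap in WT. hbae5, which lies in the smaller cluster with hbbe3, was at 131 and 149 CPM at 2 dpf and at 141 and 137 CPM at 5 dpf. Its log2 change was -0.01 (SE 0.0947, adjusted p = 0.932), and the 5 dpf pools lay between the 2 dpf pools. The sign of this near-zero value turned with other settings, for example to 0.09 with library size alone.

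In the mutants the same 4 members fell and hbae5 rose. The change was measured from the mean of the CDT and normal-tailed pools at 2 dpf to the mutant pools at 5 dpf, and 62.7% of the genes tested were called, 33.1% as higher and 29.6% as lower. hbae5 was at 88.7 and 102 CPM in CDT and 66.6 and 71.8 CPM in normal-tailed mutants at 2 dpf, and at 185 and 184 CPM in mutants at 5 dpf. Its log2 change was 1.19 (SE 0.0799, edgeR adjusted p = 4.09e-13), and it was 0.87 with library size alone. All 4 mutant pools at 2 dpf were below both at 5 dpf. hbae1.1 changed by -1.57 (SE 0.192, adjusted p = 6.24e-08), hbae1.3 by -1.44 (SE 0.0916, adjusted p = 1.11e-13) and hbae3 by -1.004 (SE 0.0837, adjusted p = 3.72e-11) on the log2 scale. hbbe3 was again almost gone, with 28966 counts over the 4 mutant pools at 2 dpf and 1 count over the 2 pools at 5 dpf, a ratio of 13200 (95% exact interval 2370 to 521000, counting error only). Its loss was thus near complete in both genotypes, and 1 count per genotype cannot show whether they differ at 5 dpf.

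**Figure D2:**
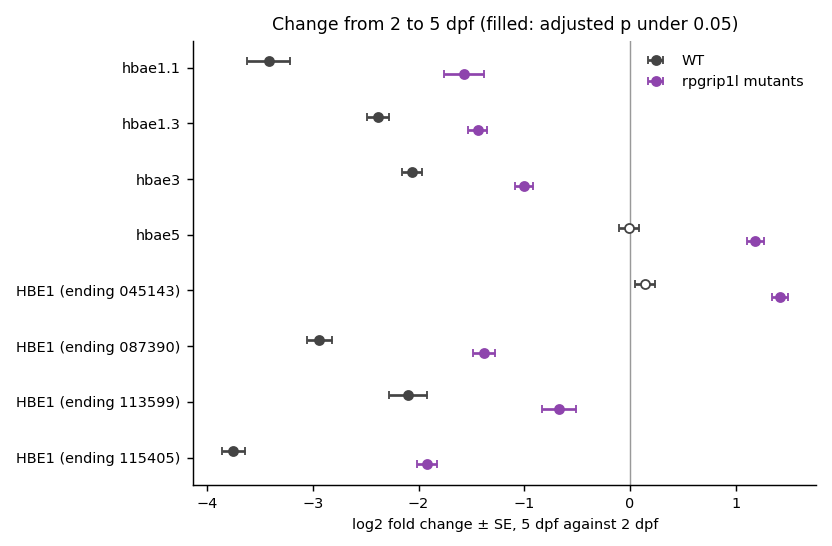
Log2 fold change from 2 to 5 dpf with its standard error (bars) in WT (grey) and in rpgrip1l mutants (purple, against the mean of both 2 dpf mutant groups), from the edgeR fit over the 10 libraries. The mutant value lies to the right of the WT value for each gene shown, from -3.42 against -1.57 for hbae1.1 to -0.01 against 1.19 for hbae5; hbbe3 is left out because its 5 dpf counts are 0 or 1.

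The 4 HBE1 identifiers showed both kinds of time course. ENSDARG00000045143 resembled hbae5, at 248 and 268 CPM in WT at 2 dpf and 281 and 289 CPM at 5 dpf. Its log2 change was 0.14 in WT (SE 0.0927, adjusted p = 0.182; 0.25 and adjusted p = 0.0199 with library size alone) and 1.418 in mutants (SE 0.0778, adjusted p = 4.19e-15). The other 3 fell in both genotypes. ENSDARG00000115405 changed by -3.75 in WT and -1.92 in mutants, ENSDARG00000087390 by -2.94 and -1.38, and ENSDARG00000113599 by -2.10 and -0.67, all with edgeR adjusted p of 0.000684 or less. The remaining 3 HBE1 identifiers had at most 10 counts in any library, and the adult alpha-type genes hbaa1 and hbaa2 at most 7, so no adult alpha-type signal was detectable above a few counts at either age.

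The composition of globin counts does not depend on scaling between libraries, because it compares genes within a library. The counts are not corrected for transcript length, so these are shares of counts, comparable between libraries but not between genes. Within the alpha-type counts, hbae5 took 4.24% to 5.31% in the 6 pools at 2 dpf and 17.0% to 20.4% in the 4 pools at 5 dpf. hbae3 took 81.1% to 82.8% at 2 dpf and 70.9% to 74.6% at 5 dpf. The hbae5 shares of WT overlapped those of CDT mutants at 2 dpf and those of mutants at 5 dpf. In normal-tailed mutants they were 4.24% and 4.70%, slightly below the 4.78% and 5.31% of WT at 2 dpf. Per count of hbae3, hbae5 gave 0.0577 and 0.0643 counts in WT at 2 dpf, 0.0593 and 0.0647 in CDT, 0.0518 and 0.0573 in normal-tailed mutants, 0.285 and 0.227 in WT at 5 dpf and 0.284 and 0.249 in mutants at 5 dpf. The balance of these 2 genes therefore moved with age. It overlapped between WT and CDT mutants at 2 dpf and between genotypes at 5 dpf, while both normal-tailed pools lay slightly below both WT pools.

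The beta-type counts were exchanged more completely. hbbe3 took 17.6% to 25% of them at 2 dpf and at most 0.00808% at 5 dpf, while HBE1 ENSDARG00000045143 took 4.73% to 6.06% at 2 dpf and 37.0% to 40.9% at 5 dpf. The hbbe3 share at 2 dpf was 24.5% and 24.7% in WT, 25% and 22.2% in normal-tailed mutants and 18.7% and 17.6% in CDT mutants, so that the CDT pools lay below the other 4. Summed over the identifiers found, there were 1.91 and 1.90 beta-type counts per alpha-type count in WT at 2 dpf and 0.992 and 0.966 at 5 dpf. At 2 dpf the ratio was 1.35 and 1.46 in CDT and 1.46 and 1.38 in normal-tailed mutants, below both WT pools in all 4. At 5 dpf the mutant ratios of 1.00 and 0.981 overlapped those of WT. No test was run on these ratios.

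**Figure D3:**
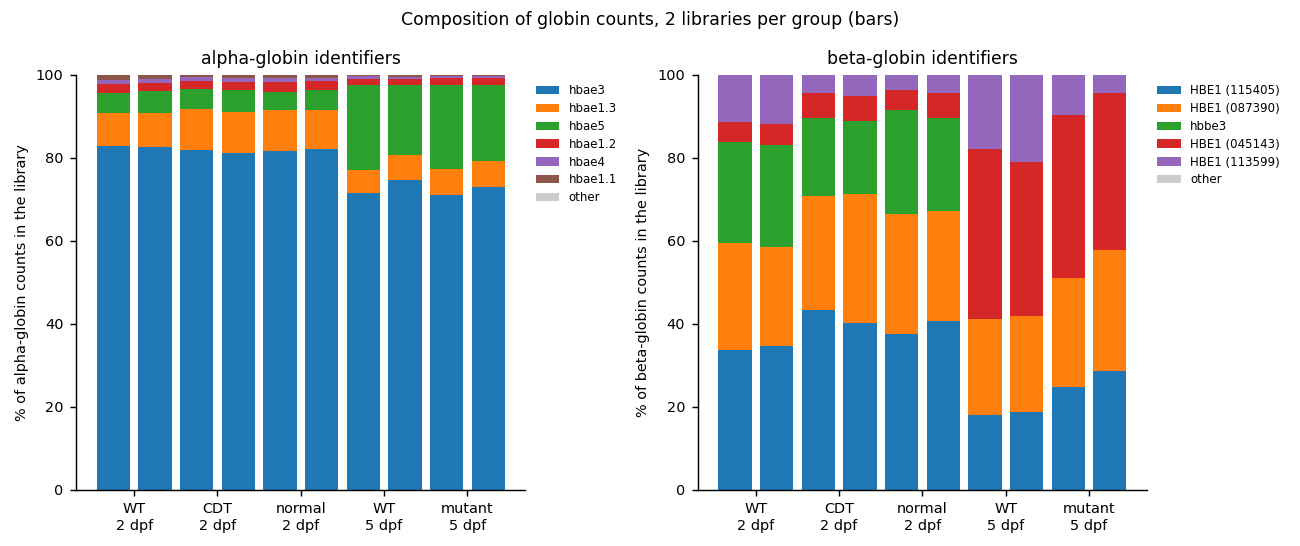
Share of each identifier in the alpha-type (left) and beta-type (right) globin counts of each library, in percent of that type's counts, with 2 bars per group. In the right panel hbbe3 (green) fills 17.6% to 25% at 2 dpf and is gone at 5 dpf, where HBE1 ENSDARG00000045143 (red) fills 37.0% to 40.9%.

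At 2 dpf the 5 members were at lower CPM in both kinds of mutant than in WT, and hbbe3 and hbae1.1 showed the largest differences. In CDT mutants 4 of 5 passed as lower, beside 40.5% of all 19636 genes tested that were called, 20.4% as lower and 20.0% as higher. In normal-tailed mutants all 5 passed as lower, beside 39.6% called, 20.4% as lower and 19.2% as higher. With library size alone 2 were called lower and 1 higher in CDT and 4 lower in normal-tailed mutants. Of all 19636 genes that scaling called 922 lower and 10214 higher in CDT, and 997 lower and 9733 higher in normal-tailed mutants. Under every scaling run hbbe3 and hbae1.1 were called lower in both groups. The median log2 difference of the 5 members was -0.51 in CDT and -0.94 in normal-tailed mutants, where that of all genes tested was 0.03 and 0.01.

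hbbe3 was at 1290 and 1320 CPM in WT, 461 and 497 CPM in CDT and 575 and 470 CPM in normal-tailed mutants. The log2 difference from WT was -1.37 in CDT (SE 0.0886, edgeR adjusted p = 2.03e-17) and -1.25 in normal-tailed mutants (SE 0.0885, adjusted p = 4.86e-16). Scaled by library size alone they were -0.92 and -0.80, with all genes shifted upward as given above. All 4 mutant pools lay below both WT pools, and CDT and normal-tailed pools overlapped. hbae1.1 was at 33.9 and 30.3 CPM in WT, 10.1 and 14.2 CPM in CDT and 13.9 and 11.4 CPM in normal-tailed mutants. Its log2 difference was -1.33 (SE 0.137, adjusted p = 4.16e-11) and -1.28 (SE 0.141, adjusted p = 2.54e-10), or -0.88 and -0.83 with library size alone.

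hbae3 and hbae5 were lower by less. hbae3 was at 2270 and 2320 CPM in WT, 1500 and 1570 CPM in CDT and 1280 and 1250 CPM in normal-tailed mutants, with log2 differences of -0.51 (SE 0.08, edgeR adjusted p = 1.25e-06) and -0.78 (SE 0.0803, adjusted p = 3.6e-11). Under library size alone the first was -0.05 (adjusted p = 0.533) and the second -0.33 (adjusted p = 0.000151). hbae5, at 131 and 149 CPM in WT, differed by -0.48 (SE 0.0895, adjusted p = 2.23e-05) in CDT and -0.94 (SE 0.0922, adjusted p = 9.67e-12) in normal-tailed mutants, and by -0.03 (adjusted p = 0.8) and -0.49 (adjusted p = 2.45e-05) with library size alone. The calls for hbae3 and hbae5 in CDT mutants therefore rested on TMM or a like scaling. All mutant pools were below all WT pools in CPM for both genes.

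For hbae1.3 the sign of the difference in CDT mutants depended on the scaling. The gene was at 217 and 231 CPM in WT, 180 and 190 CPM in CDT and 153 and 144 CPM in normal-tailed mutants. The difference in CDT was -0.20 (SE 0.084, edgeR adjusted p = 0.0556) with TMM and 0.26 (SE 0.0816, adjusted p = 0.00799) with library size alone, which reversed its sign. Both values were below the median of all genes, 0.03 with TMM and 0.48 with library size alone. In normal-tailed mutants it was -0.52 (SE 0.0852, adjusted p = 2.37e-06) with TMM and -0.07 (adjusted p = 0.501) with library size alone.

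**Figure D4:**
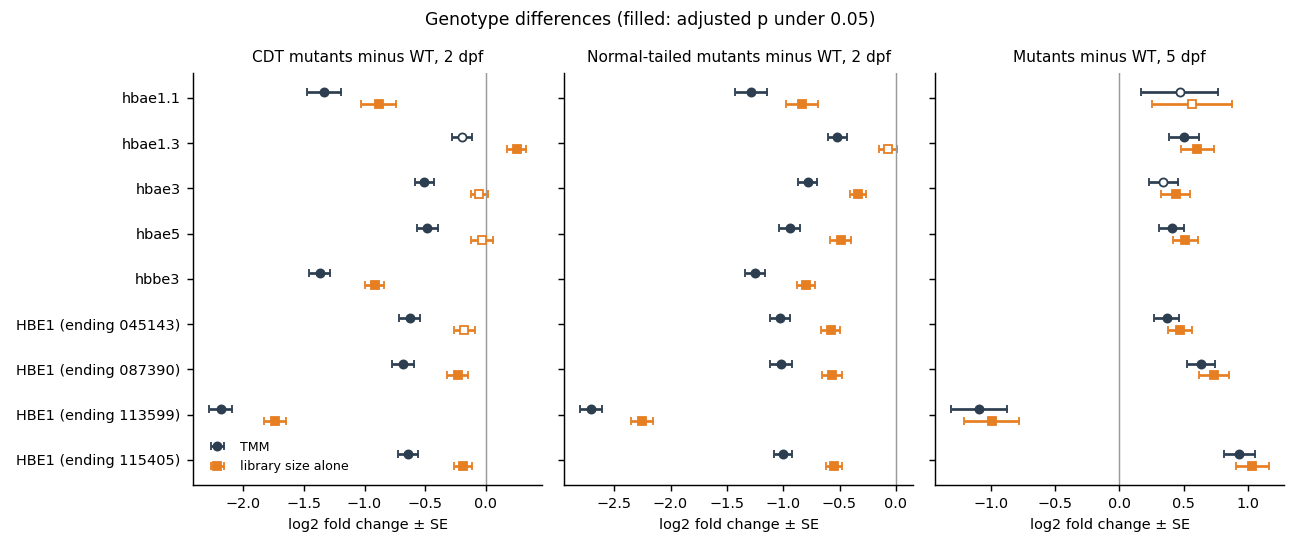
Log2 difference of mutants from WT with its standard error for CDT mutants at 2 dpf (left), normal-tailed mutants at 2 dpf (middle) and mutants at 5 dpf (right), with TMM (circles) and with library size alone (squares), filled where the adjusted p is under 0.05. At 2 dpf the squares lie to the right of the circles, for hbae1.3 in CDT at 0.26 against -0.20, while hbbe3 stays below 0 with both (-0.92 and -1.37); at 5 dpf the members tested lie above 0.

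Ratios between globins in the same library showed that the members did not differ from WT in step. hbbe3 gave 0.567 and 0.568 counts per count of hbae3 in WT at 2 dpf, 0.308 and 0.316 in CDT and 0.448 and 0.375 in normal-tailed mutants. All 4 mutant values were below both WT values, and the CDT values were below the normal-tailed ones. hbae1.1 gave 0.156 and 0.131 counts per count of its cluster neighbour hbae1.3 in WT, 0.056 and 0.0745 in CDT and 0.0909 and 0.0792 in normal-tailed mutants. HBE1 ENSDARG00000113599 gave 0.338 and 0.344 counts per count of HBE1 ENSDARG00000115405 in WT, 0.104 and 0.128 in CDT and 0.0993 and 0.110 in normal-tailed mutants. These 3 ratios separated WT from mutant pools with no scaling involved, though no test was run on them. Not all did: per count of ENSDARG00000115405, ENSDARG00000045143 gave 0.14 and 0.144 in WT and 0.129 to 0.149 in mutants. ENSDARG00000087390 gave 0.759 and 0.69 in WT and 0.632 to 0.775 in mutants. How reads were split among copies can enter the ratios within the hbae1 group and within HBE1.

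Among the HBE1 identifiers ENSDARG00000113599 differed most from WT. It was at 598 and 637 CPM in WT, 111 and 146 CPM in CDT and 85.6 and 94.3 CPM in normal-tailed mutants, with log2 differences of -2.19 (SE 0.0957, edgeR adjusted p = 9.84e-24) and -2.70 (SE 0.0988, adjusted p = 4.68e-27). They were -1.74 and -2.25 with library size alone. The other 3 abundant identifiers had log2 differences of -0.63 to -0.68 in CDT and -1.002 to -1.03 in normal-tailed mutants. With library size alone these were -0.18 to -0.23 and -0.55 to -0.58, where ENSDARG00000045143 in CDT was no longer called (adjusted p = 0.0789). Near-identical copies make the split of reads among these identifiers uncertain, and reads discarded for mapping to several places were 4.05% and 3.48% of reads in WT against 4.95% to 6.31% in the 2 dpf mutants. Their part in these differences was not tested.

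Markers of other tissues also differed at 2 dpf. Of 8 markers of whole-embryo tissues, 3 were higher and 5 lower in both kinds of mutant. Of all genes 20.0% were higher and 20.4% lower in CDT, and 19.2% and 20.4% in normal-tailed mutants. In CDT mutants all 8 kept their direction with library size alone. The summed level of the 8 markers was 53200 and 57400 CPM in WT and 32000 to 35300 CPM in mutants. The pancreatic protease gene prss1 was at 21.6 ± 0.091 CPM in WT (SD, n = 2), 1.48 ± 0.424 in CDT and 1.18 ± 0.746 in normal-tailed mutants. The liver gene fabp10a was at 6.74 ± 1.22, 1.26 ± 0.283 and 0.68 ± 0.22 CPM (SD, n = 2 each). In WT both genes were far higher at 5 dpf, at 2210 ± 416 and 396 ± 17.7 CPM. The myelin gene mbpa was at 1.17 ± 0.209 CPM in WT and at 0.0295 ± 0.0417 and 0 CPM in the mutants. The 3 higher markers were myhz2, CRYAA and ELAVL3, with log2 differences in CDT of 0.73, 0.88 and 0.58 (TMM). From 2 to 5 dpf in WT myhz2 and CRYAA also rose, by 3.21 and 2.14, while ELAVL3 changed by -0.89. Of the markers that rose with age in WT, myhz2 and CRYAA were higher in CDT mutants at 2 dpf, while ckma, fabp10a, prss1 and mbpa were lower. For ckma the change with age was 1.48 and the difference in CDT -0.66. The remaining marker krt4 fell with age (-1.56) and was lower in CDT (-0.65). The summed level of 7 leukocyte markers was 47.8 and 44.2 CPM in WT, 53.2 and 55.9 CPM in CDT and 45.3 and 46.4 CPM in normal-tailed mutants. Both CDT pools thus lay above both WT pools, and the normal-tailed pools lay between the WT pools. At 5 dpf 1 of the 8 tissue markers was higher in mutants and 1 lower, beside 1.28% and 2.56% of all genes, and 6 were not called. They were ELAVL3 with a log2 difference of 0.49 (edgeR adjusted p = 0.0173) and prss1 with -1.09 (adjusted p = 0.0141). The part of differences in tissue make-up or in stage in the globin values was not tested at either age.

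CDT and normal-tailed mutants were compared with each other directly, a comparison in which 0.952% of genes were called, 0.657% as higher and 0.295% as lower in CDT. In CDT mutants 2 members, hbae5 and hbae1.3, were higher. hbae5 was at 88.7 and 102 CPM against 66.6 and 71.8 CPM, a log2 difference of 0.46 (SE 0.0921, edgeR adjusted p = 0.00219), and hbae1.3 at 180 and 190 CPM against 153 and 144 CPM, a log2 difference of 0.32 (SE 0.0848, adjusted p = 0.044). hbae3 differed by 0.28 (SE 0.0799, adjusted p = 0.0785), hbae1.1 by -0.05 (SE 0.152, adjusted p = 0.956) and hbbe3 by -0.12 (SE 0.0876, adjusted p = 0.694). The pools of the 2 mutant groups did not overlap for hbae5 or hbae1.3. Of the 4 HBE1 identifiers tested 3 were called higher in CDT and 0 lower, with a median log2 difference of 0.38. Of the 2 other red cell globins tested 0 were called. These member calls did not all hold with single libraries left out, and calls over all genes also fell in most of those fits. The log2 differences then ran from 0.357 to 0.553 for hbae5 and from 0.272 to 0.368 for hbae1.3.

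At 5 dpf the sign with TMM was the opposite of that at 2 dpf. With library size alone this did not hold for hbae1.3 in CDT mutants, which was above WT at 2 dpf too, though below the all-gene median of 0.48. The 4 members that could be tested were above WT, 2 of them past the threshold, hbae1.3 and hbae5, where 3.84% of 20071 genes were called, 1.28% as higher and 2.56% as lower. hbae1.3 was at 38.4 and 47.6 CPM in WT and 58.9 and 63.3 CPM in mutants, a log2 difference of 0.51 (SE 0.116, edgeR adjusted p = 0.0237). hbae5 was at 141 and 137 CPM in WT and 185 and 184 CPM in mutants, a log2 difference of 0.41 (SE 0.0968, adjusted p = 0.0284). For both genes the mutant pools lay above the WT pools. hbae3, at 496 and 603 CPM against 653 and 739 CPM, differed by 0.34 (SE 0.112, adjusted p = 0.118; 0.44 and adjusted p = 0.0322 with library size alone). hbae1.1, at 2.12 and 3.85 CPM against 4.05 and 4.25 CPM, differed by 0.47 (SE 0.299, adjusted p = 0.461). With 2 pools a side these calls were fragile and did not all hold with single libraries left out. Calls over all genes moved too in those fits. The log2 differences then ran from 0.356 to 0.674 for hbae1.3 and from 0.391 to 0.427 for hbae5.

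The HBE1 identifiers divided at 5 dpf. ENSDARG00000115405 was at 123 and 145 CPM in WT and 228 and 285 CPM in mutants, a log2 difference of 0.93 (SE 0.122, edgeR adjusted p = 0.000477). ENSDARG00000087390 differed by 0.64 (SE 0.112, adjusted p = 0.00441) and ENSDARG00000045143 by 0.37 (SE 0.0967, adjusted p = 0.0474). ENSDARG00000113599 was lower, at 123 and 164 CPM in WT and 90.0 and 45.1 CPM in mutants, a log2 difference of -1.09 (SE 0.218, adjusted p = 0.0105). It was thus below WT at both ages, unlike the other 3. Per count of ENSDARG00000115405 it gave 0.999 and 1.13 counts in WT and 0.394 and 0.158 in mutants.

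The genotype difference itself was tested for a change between ages, as the difference from WT at 5 dpf minus that at 2 dpf with both kinds of 2 dpf mutant averaged. Of the 5 members 4 were called, all higher at 5 dpf, beside 23.4% of all genes called, 14.7% as higher and 8.74% as lower. The log2 values were 1.85 for hbae1.1 (SE 0.298, edgeR adjusted p = 6.87e-05), 0.94 for hbae1.3 (SE 0.133, adjusted p = 1.44e-05), 1.06 for hbae3 (SE 0.122, adjusted p = 9.62e-07) and 1.195 for hbae5 (SE 0.125, adjusted p = 2.21e-07). The median over all genes was 0.06. With library size alone the 4 values were 1.425, 0.51, 0.63 and 0.77, each still called, while the median of all genes was -0.36 and only 10.7% of the genes called were higher, against 62.6% with TMM. For hbbe3 the value (adjusted p = 0.624) rests on 1 count per genotype at 5 dpf and cannot be read.

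Genes of haem synthesis, which supply the prosthetic group of every globin chain, were looked at next. At 2 dpf 4 of 9 identifiers were lower and 1 higher in CDT mutants, and 3 lower and 0 higher in normal-tailed mutants. With library size alone 4 were higher and 0 lower in each, so no direction of the calls held across scalings, while all genes shifted upward as well. That scaling called 10214 of all 19636 genes higher and 922 lower in CDT. In normal-tailed mutants it called 9733 higher and 997 lower. Of all genes 20.4% were lower in each comparison with TMM, and the median log2 difference of the list was -0.27 in CDT against 0.03 for all genes. alas2, the erythroid enzyme of the first step, was at 74.7 ± 6.3 CPM in WT (SD, n = 2), 83.6 ± 2.76 in CDT and 63.5 ± 7.19 in normal-tailed mutants, a log2 difference of 0.24 in CDT (SE 0.0931, adjusted p = 0.0335) and -0.16 in normal-tailed mutants (adjusted p = 0.176). CPOX, which acts late in the pathway, had the largest fall in CDT with -0.47 (SE 0.132, adjusted p = 0.00348; -0.02 with library size alone). In CDT mutants alas2 was thus above WT where the called globins were below it.

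At 5 dpf alas2 and CPOX were higher in mutants and none of the 9 was lower, beside 1.28% of all genes higher and 2.56% lower. alas2 was at 24 ± 6.26 CPM in WT and 42.1 ± 10.3 CPM in mutants (SD, n = 2 each), a log2 difference of 0.81 (SE 0.172, edgeR adjusted p = 0.0147), and CPOX at 19.6 ± 0.0606 and 27.9 ± 1.8 CPM, a difference of 0.51 (SE 0.119, adjusted p = 0.0265). From 2 to 5 dpf in WT 6 of 9 were lower and 0 higher, beside 29.5% of all genes lower. In the test of the genotype difference between ages 6 of 9 were higher with TMM, beside 14.7% of all genes. With library size alone 1 was higher and 1 lower, beside 634 and 5292 of all 21016 genes.

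Other red cell genes were mixed at 2 dpf. The more abundant of the 2 identifiers with the symbol SLC4A1 (ENSDARG00000012881), the anion exchanger of the red cell membrane, was at 126 ± 0.43 CPM in WT (SD, n = 2), 143 ± 3.24 in CDT and 145 ± 14.8 in normal-tailed mutants. It was above WT by 0.26 (SE 0.0871, edgeR adjusted p = 0.0138) and 0.28 (SE 0.0877, adjusted p = 0.00964) while every member was at lower CPM. At 5 dpf it was at 54.1 ± 10.6 CPM in WT and 89.4 ± 8.97 CPM in mutants (SD, n = 2 each), a log2 difference of 0.72 (SE 0.128, adjusted p = 0.00466). No source used here says which zebrafish gene either SLC4A1 identifier is, so neither can be placed in red cells by its symbol alone. The less abundant identifier (ENSDARG00000024560) was at 6.7 ± 1.15 CPM in WT, 9.24 ± 0.122 in CDT and 3.39 ± 0.334 in normal-tailed mutants (SD, n = 2 each). Its log2 difference was 0.55 in CDT (SE 0.189, adjusted p = 0.0169) and -0.91 in normal-tailed mutants (SE 0.227, adjusted p = 0.00107; -0.46 and adjusted p = 0.0826 with library size alone). At 5 dpf, at 5.64 ± 1.01 CPM in WT and 1.08 ± 0.258 CPM in mutants (SD, n = 2 each), its log2 difference was -2.37 (SE 0.318, adjusted p = 0.000604; -2.26 with library size alone). Of 14 red cell membrane and enzyme genes, 3 were higher and 4 lower in CDT, beside 20.0% and 20.4% of all genes, with SPTB, a spectrin chain, at 0.88 (SE 0.122, adjusted p = 9.57e-08) and znfl2a at -0.80 (SE 0.15, adjusted p = 2.66e-05). In normal-tailed mutants 3 were higher and 6 lower, beside 19.2% and 20.4% of all genes. Scaled by library size alone the list had 8 higher and 1 lower in CDT, beside 10214 and 922 of all 19636 genes. In normal-tailed mutants it had 6 higher and 2 lower, beside 9733 and 997 of all genes.

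Among 13 transcription factors of the red cell lineage 5 were higher and 1 lower in CDT mutants, and 4 higher and 1 lower in normal-tailed mutants. With library size alone 10 and 7 were higher and 0 lower, where 10214 and 9733 of all 19636 genes were called higher. With TMM the shares called in either direction, 6 and 5 of 13, were near those of all genes, 40.5% and 39.6%. By direction, 5 and 4 of 13 were higher, beside 20.0% and 19.2% of all genes. Lower was 1 of 13 in each, beside 20.4% of all genes. SOX6, which in mice silences an embryonic globin gene, was at 7.4 ± 0.509 CPM in WT (SD, n = 2), 15.9 ± 0.0091 in CDT and 14.7 ± 1.59 in normal-tailed mutants, with a log2 difference in CDT of 1.17 (SE 0.157, edgeR adjusted p = 3.43e-08). Sox6 and Bcl11a are also used outside blood, for example in neurons, so whole-animal values cannot be placed in red cells. gata1a, the main red cell factor, was at 2.57 ± 0.085, 1.95 ± 0.417 and 2.02 ± 0.165 CPM, differences that did not pass (adjusted p = 0.473 and 0.546). At 5 dpf only KLF3 passed in this list, at 68.6 ± 1.63 CPM in WT and 44 ± 8.55 CPM in mutants, a log2 difference of -0.64 (SE 0.123, adjusted p = 0.00806). Of 11 iron supply genes tested 2 were higher and 3 lower in CDT mutants, beside 20.0% and 20.4% of all genes. The largest were the transferrin receptor tfr1a at 1.51 (SE 0.218, adjusted p = 1.99e-07) and the ferritin chain fth1a at -0.72 (SE 0.0827, adjusted p = 9.19e-10). With library size alone 7 were higher and 1 lower, beside 10214 and 922 of all 19636 genes.

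**Figure D5:**
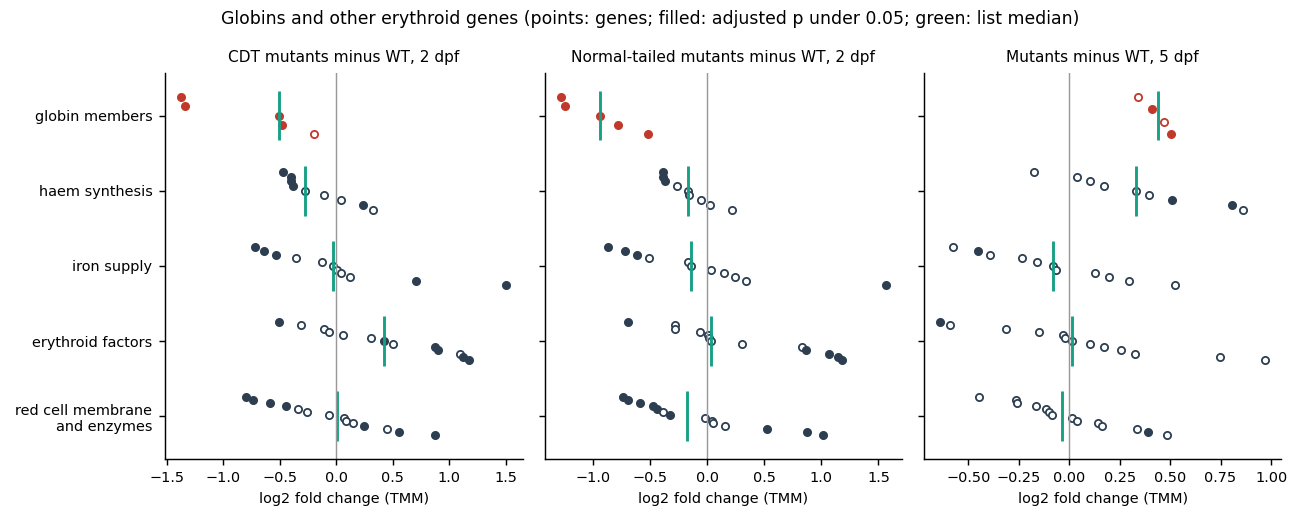
Log2 difference of mutants from WT (TMM) for the globin members (red) and for the genes of 4 other erythroid lists (dark blue), filled where the adjusted p is under 0.05, with the list median as a green line, for CDT mutants at 2 dpf (left), normal-tailed mutants at 2 dpf (middle) and mutants at 5 dpf (right). In the left panel all 5 members lie below 0 (median -0.51), whereas haem synthesis has a median of -0.27 and the other lists spread to both sides.

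Globins outside red cells moved the other way with age. Of 5 tested, 4 rose from 2 to 5 dpf in WT and none fell, beside 31.3% of all genes that rose and 29.5% that fell. The muscle oxygen store myoglobin (mb) went from 42.7 ± 2.53 to 127 ± 10.8 CPM (SD, n = 2 each), a log2 change of 1.58 (SE 0.108, edgeR adjusted p = 6.67e-13), and neuroglobin (NGB) from 3.81 ± 0.482 to 18.2 ± 1.62 CPM, a log2 change of 2.25 (SE 0.191, adjusted p = 5.98e-11). At 5 dpf the cytoglobin identifier with the symbol CYGB was lower in mutants, at 52.6 ± 1.29 against 88.9 ± 4.91 CPM, a log2 difference of -0.76 (SE 0.101, adjusted p = 0.000595; -0.65 with library size alone). Of 11 genes that low oxygen induces, 8 rose in WT over the same time and none fell, where 60.8% of all genes were called and 31.3% as higher. Between genotypes at 5 dpf 2 of these were lower in mutants and 0 higher, beside 2.56% of all genes lower and 1.28% higher. They were PFKFB4 with -0.87 (SE 0.116, adjusted p = 0.000569) and PFKFB3 with -0.45 (SE 0.106, adjusted p = 0.027), both regulators of glycolysis. With library size alone 1 of the 11 was lower and 1 higher, beside 329 and 563 of all 20071 genes. Changes of the red cell globins were therefore not shared by all globins.

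The genes whose levels followed each member most closely were searched among 9710 non-globin genes with a mean of at least 10 CPM, by Pearson's r of log2 CPM over the 10 libraries, as a description with no test. These libraries share age and genotype, and most of the likeness follows age. hbbe3 was followed most closely by zgc:174154 (r = 0.9994), ctslb.4 (r = 0.9992) and si:dkey-269i1.4 (r = 0.9988). hbae1.3 was followed by the apolipoprotein gene apoa4a (r = 0.9947), hbae3 by DHRS3 (r = 0.9916), hbae1.1 by zgc:174935 (r = 0.9894) and hbae5 by EEF2K (r = 0.984). Once the mean of each age was removed, the mean of the members was followed most closely by IFT46 (r = 0.988), rnf8 (r = 0.9797) and MEOX1 (r = 0.979). Next came h3f3b.1 (r = 0.9781) and prss59 (r = 0.9753). What remains then includes the split of WT and mutants at 2 dpf, where 40.5% and 39.6% of all genes were called. Such likeness need not be particular to these genes.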

How the data were processed

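Whole-animal pools were sequenced by the authors as polyA-selected paired reads. Per the labels and the study's methods, the authors used Trim Galore 0.4.4 for trimming, STAR 2.7.3a for alignment to the GRCz11 assembly and HTSeq 0.12.3 at default settings for counting per gene, and the deposited values are raw counts per Ensembl identifier. HTSeq's rows that name no gene were left out of library sizes: reads in no feature were 45.6% to 47.3%, reads mapped to several places 3.2% to 6.31% and ambiguous reads 0.455% to 0.545% of each file. Symbols came from a gene name table that covered 28988 of 32057 identifiers.

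Counts were tested with edgeR 4.0.16 in R 4.3.3 (TMM, filterByExpr by group, quasi-likelihood F test, Benjamini-Hochberg over all genes tested, called at adjusted p under 0.05). The 6 libraries at 2 dpf, the 4 at 5 dpf and, for development and its interaction with genotype, all 10 were fitted apart. Given SE are the log2 fold change divided by the square root of F. Scripts were tested on simulated data. Alternatives were DESeq2 1.42.0, upper quartile scaling, library size alone, scaling without globins, other low-count filters, a replicate block, other sets of libraries and single libraries left out. The 7 HBE1 identifiers and the 2 SLC4A1 identifiers were added after the symbols were seen. Every member was reported. Of other lists the text names genes with the largest change among those called, and defining genes. SOX6, BCL11A, prss1, fabp10a, mbpa, myhz2, CRYAA, ELAVL3, ckma and krt4 were named after their values were seen. The members and lists were chosen with earlier results of these data known.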

Additional observations from a re-analysis of the deposited data

Results flagged for a closer look

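The difference between mutants and WT was not the same at 5 dpf as at 2 dpf for 9 globin identifiers, by edgeR's test of the interaction over the 10 libraries. On the log2 scale the genotype difference at 5 dpf minus that at 2 dpf was 1.85 for hbae1.1, 0.94 for hbae1.3, 1.06 for hbae3 and 1.195 for hbae5. It was 1.16 for hbae1.2, which is not a member. For the HBE1 identifiers it was 1.27 for ENSDARG00000045143, 1.56 for ENSDARG00000087390, 1.43 for ENSDARG00000113599 and 1.83 for ENSDARG00000115405. These 9 are the globin identifiers that were called, so the fact that all of them passed adds nothing. Of those tested, 4 of 5 members, 1 of 2 other red cell globins and 4 of 4 HBE1 identifiers were called, all as higher. Of all genes 23.4% were called, 14.7% as higher. In 8 of the 9 the mutants were at lower mean CPM than WT at 2 dpf and at higher mean CPM at 5 dpf, as scaled with TMM. With library size alone hbae1.3 in CDT mutants was above WT at 2 dpf as well (log2 difference 0.26, where the median of all genes was 0.48). By that scaling hbae3 and hbae5 in CDT were at -0.05 and -0.03. ENSDARG00000113599 was below WT at both ages and nearer to it at 5 dpf.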

How the results depend on the processing

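The count of members called kept within 1.5 times its value in each of the other comparisons and settings run. For CDT against normal-tailed mutants it was 2, but 1 with the 4 libraries compared alone and 1 with all 10 libraries in 1 fit. Over all genes those fits called 130 of 19393 and 81 of 21016, against 187 of 19636 in the main fit. The count also moved with single libraries left out, there and for mutants against WT at 5 dpf, where it was 2. Fits without a library leave a group with a lone library, assumed to vary like the others, so no counts are given from them. The direction turned for hbae1.3 in CDT mutants against WT with library size alone (0.255), and for hbae5 in WT development with upper quartile scaling (0.0168), library size alone (0.0937), at least 10 counts in every library (0.0778) and single libraries left out (-0.11 to 0.0844). In CDT against normal-tailed mutants, leaving out single libraries turned hbae1.1 (-0.31 to 0.174) and hbbe3 (-0.27 to 0.0324), neither of which was called. The cause was not tested, other than that library size alone shifts all genes at 2 dpf. The filter of at least 10 counts drops hbbe3 from the fits over both ages. Of the single-gene values, 467 kept their direction and their side of the threshold, 19 lost the call, 12 gained it and 9 turned.

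The deviations of libraries with the same replicate number correlated at 0.01 to 0.04 between groups. That shows no pairing by number but cannot exclude one, since noise in single genes also lowers such a correlation. With a replicate block the members called were 5 for CDT and 5 for normal-tailed mutants against WT, 3 between them, 3 at 5 dpf, 4 for WT development, 5 for mutant development and 4 for the interaction. Over all 19636 genes at 2 dpf the block called 8200, 8008 and 298, against 7945, 7769 and 187 without it. At 5 dpf it called 1212 of 20071, against 771 without it. For the last 3 comparisons it called 12695, 13130 and 4862 of 21016.

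With 2 libraries a group the depth of each library, at least 9101264 counts, does not limit the members at 2 dpf, but hbbe3 at 5 dpf rests on 0 or 1 counts and hbae1.1 at 5 dpf on 32 to 61 counts. Copies that share reads, parents that differ with genotype and tissue make-up limit what the values can be assigned to.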
